A study of Mus musculus with 4 samples.

Results

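Cytochrome P450 genes encode haem enzymes that oxidise steroids, sterols, vitamins, fatty acids and foreign compounds. They were read here in 4 mouse bones. The members were chosen by name: every non-control probe whose gene name in the scanner files was Cyp followed by a family number, a subfamily letter and a gene number. This gave 103 probes for 71 genes in 36 subfamilies, of 27742 gene names with a value. The name rule used no measured value, though the set was chosen with earlier results of these data known. RNA came from 2 jaw bones (maxilla and mandible), the ilium and the femur of male C57BL/6 mice aged 35 days, with no treatment, transgene or altered allele named for any group. Each bone was hybridised to 1 Agilent whole mouse genome array in 1 colour (cyanine 3). The number of animals behind each RNA sample is not in the labels. A bone has no replicate, so p-values below set the difference between the classes against the spread of the 2 bones within each class. The classes are the jaw (maxilla and mandible) and the trunk and limb (ilium and femur). Variation between animals is not measured by these p-values.

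P450 enzymes are named by sequence: a number for the family, a letter for the subfamily, and a last number for the gene. Families 1 to 4 are known mainly for foreign compounds and fatty acids and are prominent in liver, lung and nasal mucosa, where several genes of a subfamily often lie side by side on a chromosome. The higher numbered families are known for steroid hormones, bile acids, vitamin D and retinoic acid. Most members sit in the endoplasmic reticulum and take electrons from P450 reductase, the product of Por. The mitochondrial members take them from ferredoxin.

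Every value below is the log2 processed signal minus the log2 of its array's 75th percentile, for the probe of the gene with the highest mean. Values are comparable between bones for 1 gene, not between genes. The scanner program marks a spot as well above background when it exceeds its local background by a set margin. By that mark 72.8% to 75.5% of the 43379 non-control spots were detected on an array, and 0 were saturated. The 75th percentile was 809 intensity units for the maxilla and between 1142 and 1208 for the others. All 6 osteoblast and osteocyte markers, among them Bglap and Col1a1, were well above background in every bone, with a summed signal between 261 and 399 times the 75th percentile. The RNA was bulk RNA of a bone, so fewer cells of a type and less RNA per cell cannot be told apart.

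Of the 71 members, 51 were well above background on at least 1 array, 38 on all 4 arrays and 20 on no array. The count per bone was 45 (ilium), 47 (femur), 49 (maxilla) and 41 (mandible). The maxilla was the brightest bone for 31 of the 51, the femur for 11, the mandible for 5 and the ilium for 4. In 18 of the 51 (35.3%) the maxilla was at least 4-fold above each of the other 3 bones, a rule that 6.68% of all 22351 detected gene names met. The mandible stood out by the same rule for 1 member, Cyp26a1 (1.96%, against 1.03% of all gene names). The ilium did so for 0 members (background 0.183%) and the femur for 0 (background 0.0671%). Setting the jaw bones against each other, 21 of 51 members (41.2%) were at least 4-fold brighter in the maxilla (background 8.49%) and 1 (1.96%) in the mandible (background 2.37%). The median difference of the maxilla from the mandible was 1.08 on the log2 scale over these 51 members and -0.04 over all detected gene names. Between ilium and femur, 2 members (3.92%) were at least 4-fold brighter in the ilium (background 0.644%) and 0 in the femur (background 0.282%). These counts rest on 1 array per bone and carry no test. Detection on all 4 arrays was met by 12 of the 21 and by 9 of the 18.

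**Figure D1:**
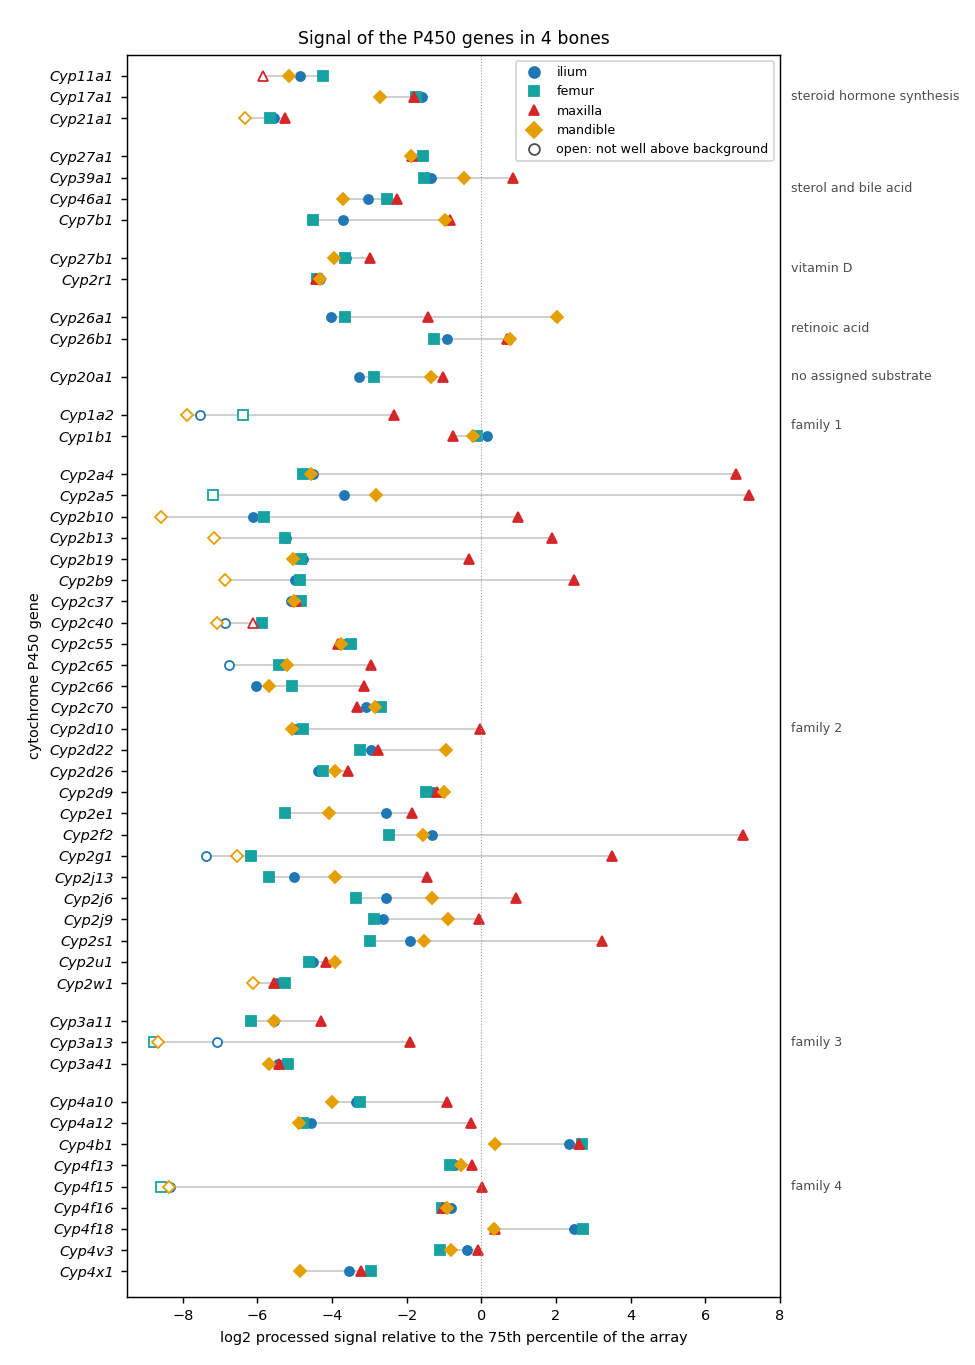
Log2 processed signal minus the array's own 75th percentile (x axis) for the 51 P450 genes well above background on at least 1 array, 1 row a gene, grouped by role; each symbol is 1 array, filled where the spot was well above background. The maxilla triangle lies at least 4-fold to the right of every other symbol in 13 of the 25 rows of family 2. The rows of steroid hormone and vitamin D genes are narrow. Positions are to be read within a row.

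The question set by the study's title is how jaw bones differ from trunk and limb bones. In limma, with Benjamini-Hochberg adjustment over 20714 gene names detected on at least 2 arrays, 4 of the 47 tested members (8.51%) were higher in the jaw bones and 1 (2.13%) was lower. The background was 4.52% higher and 7.22% lower. The 4 higher were Cyp7b1, Cyp2j9, Cyp20a1 and Cyp26b1, and the lower was Cyp4f18. At an unadjusted p under 0.05 there were 8 of 47 members, against 34.3% of all tested gene names. Both jaw values lay above both others for 16 of the 47 (34.0%, background 31.9%) and below both others for 7 (14.9%, background 36.2%). The median difference was 0.94 on the log2 scale over the tested members, 31 of them positive and 16 negative, against -0.03 over all tested gene names. A rule of size, a gap of at least 1 on the log2 scale between the classes, was met by 7 members upward (14.9%, background 9.34%) and 1 downward (2.13%, background 9.8%). Each of the 5 members called by limma met it too. The calls depended on single arrays. Without the ilium or without the femur limma called 0 members and 0 gene names in all. The smallest adjusted p was then 0.235 and 0.356, with 3566 and 2639 gene names at an unadjusted p under 0.05. Without the maxilla it called 7 members higher and 7 lower, and without the mandible 23 higher and 1 lower. Leaving out a bone assumes that the lone bone of its class varies like the pair that remains.

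**Figure D2:**
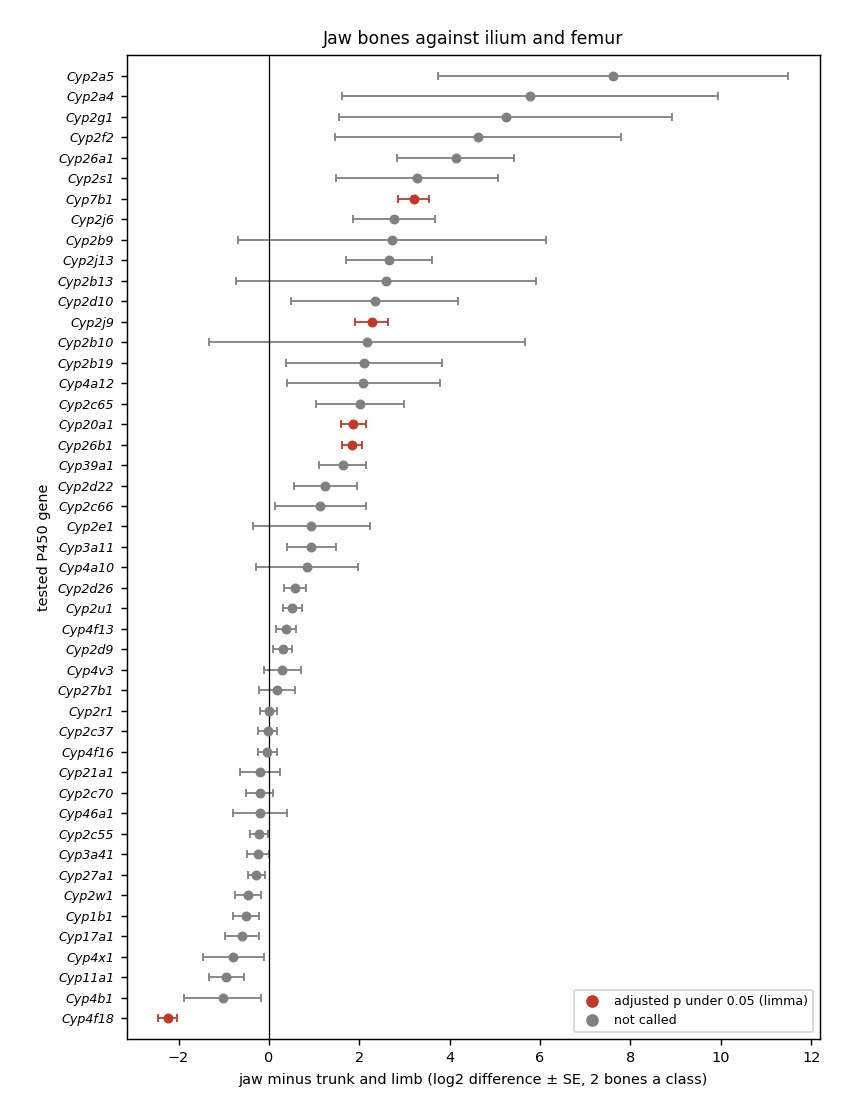
Fitted difference of the jaw bones from ilium and femur (log2, points) with its standard error (bars, 2 bones a class) for the 47 tested P450 genes, ordered by size; red marks an adjusted p under 0.05 in limma. The widest bars belong to genes that were high in the maxilla alone, and the 5 called genes, Cyp4f18 at -2.24 and the others between 1.83 and 3.20, have narrow ones.

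Steroid hormone synthesis was represented by 5 members, and 3 were detected. Cyp11a1, which cleaves the cholesterol side chain to start steroid synthesis, read -4.86 (ilium), -4.25 (femur), -5.84 (maxilla, not well above background) and -5.15 (mandible). Cyp17a1, which leads from progestins towards androgens, read -1.58, -1.75, -1.81 and -2.71 in the same order of bones. Cyp21a1, a step of corticosteroid synthesis, read -5.55, -5.67, -5.26 and -6.34 (not well above background in the mandible). The classes overlapped for Cyp21a1. For Cyp17a1 and Cyp11a1 both jaw values lay below both others, as for 36.2% of all tested gene names. For Cyp17a1 the nearest values were -1.75 (femur) and -1.81 (maxilla). For Cyp11a1 the jaw minus trunk and limb difference was -0.94 ± 0.38 (SE, 2 bones a class; limma adjusted p = 0.183). Cyp17a1 and Cyp21a1 differed by -0.60 ± 0.38 (adjusted p = 0.348) and -0.19 ± 0.44 (adjusted p = 0.783). Limma called 0 of the 3, and 0 had an unadjusted p under 0.05. Cyp11b2 (aldosterone synthase) and Cyp19a1 (aromatase, which makes oestrogens) were not well above background in any bone.

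Of the 6 members of sterol and bile acid metabolism, 4 were detected. Limma called 1 higher (background 4.52%) and 0 lower (background 7.22%). Cyp7b1, which hydroxylates oxysterols and some steroids, was higher in both jaw bones. It read -3.71 (ilium), -4.50 (femur), -0.84 (maxilla) and -0.97 (mandible). Both jaw values lay above both others, as for 31.9% of all tested gene names. The difference was 3.20 ± 0.35 (SE), or 9.18-fold, with a limma adjusted p of 0.0326. Cyp39a1, another oxysterol hydroxylase, read -1.34, -1.54, 0.84 and -0.46. Both jaw values were above both others, and the difference of 1.63 ± 0.52 did not pass (adjusted p = 0.123). Its other probe gave -1.88, -2.03, 0.29 and -0.82, the same order of bones. Cyp27a1, the mitochondrial enzyme that oxidises the sterol side chain, was nearly level, with -1.62, -1.56, -1.86 and -1.88. Cyp46a1, known for removing cholesterol from the brain, read -3.03, -2.54, -2.26 and -3.71, and the classes overlapped. Cyp7a1, the rate-limiting enzyme of bile acid synthesis in the liver, and Cyp8b1, which is needed for cholic acid, were not well above background in any bone. The hepatocyte markers were low in every bone: the 7 found had sums of 0.189 (ilium), 0.189 (femur), 0.243 (maxilla) and 0.141 (mandible), in units of the 75th percentile.

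Of the 3 vitamin D enzymes 2 were detected, and the classes overlapped for both. Cyp2r1, which makes the circulating form of vitamin D, read -4.32 (ilium), -4.40 (femur), -4.43 (maxilla) and -4.32 (mandible), a range of 0.11. Cyp27b1, which makes the active hormone, read -3.62, -3.65, -2.98 and -3.94. Their jaw minus trunk and limb differences were -0.01 ± 0.19 and 0.17 ± 0.40 (limma adjusted p = 0.964 and 0.789), with 0 of the 2 at an unadjusted p under 0.05. The second Cyp27b1 probe gave a difference of -0.43, of the opposite sign. Cyp24a1, which inactivates the hormone, was not well above background in any bone. Of 6 listed genes of vitamin D uptake and response, 5 were tested. Limma called 1 higher (background 4.52%) and 0 lower (background 7.22%). The called gene, the calcium channel gene Trpv6, read -7.45, -6.94, -3.14 and -3.13. It was well above background only in the jaw bones (difference 4.06 ± 0.27, limma adjusted p = 0.0326). The receptor gene Vdr read 2.06, 0.50, 1.70 and 2.73, and its classes overlapped.

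Retinoic acid is cleared by the Cyp26 enzymes, and 1 of the 2 Cyp26 genes measured was called higher in the jaw bones (background 4.52%). Both had both jaw values above both others, as did 31.9% of all tested gene names. Cyp26b1 read -0.93 (ilium), -1.26 (femur), 0.69 (maxilla) and 0.78 (mandible). The jaw values were nearly equal and did not overlap with the others; the difference was 1.83 ± 0.22 (SE), or 3.56-fold (limma adjusted p = 0.0340). The call was lost with no filter on dim genes (adjusted p = 0.0501) and in the deposited series table (adjusted p = 0.0512). Cyp26a1 read -4.03, -3.64, -1.44 and 2.03. It differed more within the jaw than Cyp26b1, being 11.1-fold brighter in the mandible than in the maxilla, and its difference of 4.13 ± 1.29 did not pass (adjusted p = 0.119). Of 11 genes of retinoid handling, 10 were tested, and limma called 5 higher (background 4.52%) and 0 lower (background 7.22%), with a median difference of 2.31. The binding protein gene Crabp1 read -5.38, -4.78, 0.08 and 0.52 (5.38 ± 0.33, adjusted p = 0.0326). Aldh1a3, which makes retinoic acid, read -2.13, -2.46, 0.75 and 2.46 (3.90 ± 0.66, adjusted p = 0.0475). Rdh10, which makes retinal, read -2.00, -1.94, -0.35 and 0.41 (2.00 ± 0.34, adjusted p = 0.0467). The receptor gene Rarb, itself known as a retinoic acid target, read -1.94, -2.37, 0.22 and 1.45 (2.99 ± 0.51, adjusted p = 0.0475). In the same arrays the 4 tooth matrix markers summed to 0.27 (ilium), 0.0577 (femur), 87.5 (maxilla) and 256 (mandible). Limma called 3 of the 4 higher (background 4.52%). The 4 keratinocyte markers summed to 0.136, 0.15, 28.1 and 68.9, with 3 called higher (background 4.52%). Their part in the results for the retinoid genes, Cyp7b1, Cyp20a1 and Cyp2j9 was not tested.

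The promoter of Cyp26a1 is shown because this gene is the textbook example of one with a retinoic acid response element. The 250 bases before its start, from RefSeq on GRCm38.p6, are chr19:37697558-37697807 on the plus strand. Capitals mark a direct repeat of AGTTCA with a spacer of 5 bases, read on the minus strand.
Cyp26a1: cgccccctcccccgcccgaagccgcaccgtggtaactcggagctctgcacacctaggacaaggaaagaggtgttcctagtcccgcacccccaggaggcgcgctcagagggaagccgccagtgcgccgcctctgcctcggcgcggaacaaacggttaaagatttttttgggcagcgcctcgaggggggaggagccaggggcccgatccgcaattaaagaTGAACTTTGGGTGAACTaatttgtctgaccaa
The motif searched was AGTTCA or AGGTCA, a spacer of 5 bases, and again AGTTCA or AGGTCA, on both strands. It was found in 0.0335% of 32851 mouse promoters of this length and, of 63 promoters matched to 54 members, in this 1. The match ends 15 bases before the start. A match is a description of the letters.

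Cyp20a1, an enzyme with no assigned substrate, was higher in both jaw bones. It read -3.27 (ilium), -2.88 (femur), -1.04 (maxilla) and -1.36 (mandible). Both jaw values lay above both others, as for 31.9% of all tested gene names. The difference was 1.87 ± 0.27 (SE), or 3.67-fold (limma adjusted p = 0.0373, and 0.0549 with no filter on dim genes).

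Family 1 is known for induction by dioxin-like compounds through the receptor Ahr. Cyp1a2, which oxidises aromatic amines, read -7.55 (ilium), -6.39 (femur), -2.33 (maxilla) and -7.89 (mandible). It was well above background in the maxilla only, at least 16.7-fold above each other bone. Such bounds put a bone below background at the lowest detected signal of its array, or at its own value where that is higher. The other Cyp1a2 probe also stood out in the maxilla. Cyp1a1 was not well above background in any bone. Cyp1b1, which is widely expressed outside the liver, read 0.15, -0.11, -0.75 and -0.22, a narrow range. Ahr itself read -1.90, -2.00, 0.55 and -1.39, so the maxilla was 3.84-fold above the next bone.

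Family 2, leaving out Cyp2r1, which is counted above with the vitamin D enzymes, held 34 of the 71 members, and 25 were detected. It held 13 of the 18 members that marked the maxilla. Limma called 1 of its 24 tested members higher (background 4.52%) and 0 lower (background 7.22%). The subfamilies differed. In Cyp2a, Cyp2b, Cyp2f, Cyp2g and Cyp2s every detected member marked the maxilla, while in Cyp2c this was 1 of 6, in Cyp2d 1 of 4 and in Cyp2j 2 of 3. The members of Cyp2r, Cyp2u and Cyp2w lay within 0.11, 0.71 and 0.86 across the 4 bones.

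The Cyp2a genes had the greatest maxilla signal over the other bones. Cyp2a5, the coumarin hydroxylase abundant in olfactory mucosa, read -3.69 (ilium), -7.19 (femur, not well above background), 7.18 (maxilla) and -2.82 (mandible). The maxilla was 1030-fold above the next bone. Cyp2a4, a testosterone hydroxylase, read -4.51, -4.78, 6.82 and -4.57, so the maxilla was 2579-fold above the next bone. Their fitted jaw minus trunk and limb differences were 7.62 ± 3.87 and 5.77 ± 4.16 (limma adjusted p = 0.254 and 0.392), and neither passed, since the mandible lay with the trunk and limb bones. The second probe of each gene also had the maxilla highest, at 7.05 for Cyp2a5 and 5.92 for Cyp2a4. Cyp2a12 was not well above background in any bone. The 2 genes are near-identical copies, so which of them gave the signal is uncertain. Their promoters are shown because the copies extend upstream of the genes, and both genes marked the maxilla. The stretches are chr7:26835089-26835338 (Cyp2a5) and chr7:26306942-26307191 (Cyp2a4), both on the plus strand of GRCm38.p6, from RefSeq. Capitals mark the motif TATAAA.
Cyp2a5: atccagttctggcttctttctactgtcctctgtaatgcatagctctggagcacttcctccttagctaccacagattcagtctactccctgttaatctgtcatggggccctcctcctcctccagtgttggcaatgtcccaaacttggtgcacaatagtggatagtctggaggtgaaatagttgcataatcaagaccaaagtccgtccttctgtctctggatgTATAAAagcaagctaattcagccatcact
Cyp2a4: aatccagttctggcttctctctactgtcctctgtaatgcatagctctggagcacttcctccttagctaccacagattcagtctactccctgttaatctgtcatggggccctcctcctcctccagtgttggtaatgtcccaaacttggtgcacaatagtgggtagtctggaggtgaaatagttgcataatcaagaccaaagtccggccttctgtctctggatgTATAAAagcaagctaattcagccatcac
The stretches were identical in 245 of 251 aligned columns (97.6%). By contrast Cyp2a5 and Cyp2f2, also in the cluster on chromosome 7, shared 51.2%. TATAAA, searched on both strands, was in 12.4% of all promoters and in 24 of the 63 promoters of members.

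The 4 Cyp2b genes, of a subfamily known for induction by phenobarbital-like drugs, all marked the maxilla. Cyp2b10 read -6.12 (ilium), -5.83 (femur), 0.97 (maxilla) and -8.59 (mandible), and the maxilla was 111-fold above the next bone. Cyp2b9 read -5.00, -4.86, 2.47 and -6.87, a gap of 161-fold. Cyp2b13 read -5.23, -5.25, 1.88 and -7.17, a gap of 138-fold. The mandible was not well above background for these 3 genes, while the ilium and the femur were. For Cyp2b13 the other probe read -6.04, -5.27, -4.77 and -6.02 and did not mark the maxilla. Cyp2b19, known as an arachidonic acid epoxygenase of keratinocytes, read -4.79, -4.82, -0.34 and -5.05, a gap of 21.9-fold.

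Cyp2f2, known from secretory cells of the airway, read -1.33 (ilium), -2.48 (femur), 7.01 (maxilla) and -1.56 (mandible), so the maxilla was 325-fold above the next bone. Cyp2g1, known from the olfactory mucosa, read -7.39, -6.16, 3.49 and -6.55, a gap of 801-fold. It was well above background in the maxilla and the femur only. Cyp2s1, an enzyme of epithelia, read -1.91, -2.98, 3.22 and -1.54, a gap of 27.1-fold. The other Cyp2s1 probe was not well above background in any bone. These 3 subfamilies have 1 member each, and in all of them the mandible lay near the ilium and the femur.

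Position was shared by these genes. With neighbouring members at most 1000000 bases apart on the array design's build (mm8), the members formed 8 clusters of 3 or more. The chromosome 7 cluster (chr7:25511245-26842370) held Cyp2s1, Cyp2b10, Cyp2b13, Cyp2b9, Cyp2a4, Cyp2b19, Cyp2g1, Cyp2a5, Cyp2a12 and Cyp2f2, in this order. Of these 10 members 9 were detected, and all 9 marked the maxilla, a rule met by 6.68% of all detected gene names. Of 12 other gene names with probes in the same stretch, 8 were detected and 3 marked the maxilla (background 6.68%). Among those 3 was V1re12, a vomeronasal receptor gene, with -4.60, -4.62, -0.04 and -4.56. The rest of those 3 carried no gene symbol, so whether they belong to P450 genes is not known. Another of the 12, EG243881 (current symbol Cyp2b23), read -8.16, -5.88, -4.41 and -6.67 and did not mark the maxilla. In the cluster of 10 Cyp2c genes on chromosome 19, 6 were detected and 1 marked the maxilla. The 2 clusters of chromosome 4 each held 2 such genes, among 3 detected Cyp2j genes and among 4 detected genes of Cyp4a, Cyp4b and Cyp4x. The Cyp2d cluster of chromosome 15, the Cyp4f cluster of chromosome 17 and the Cyp1a and Cyp11a1 cluster of chromosome 9 held 1 each. The Cyp3a cluster of chromosome 5 held 0, among 2 detected.

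**Figure D3:**
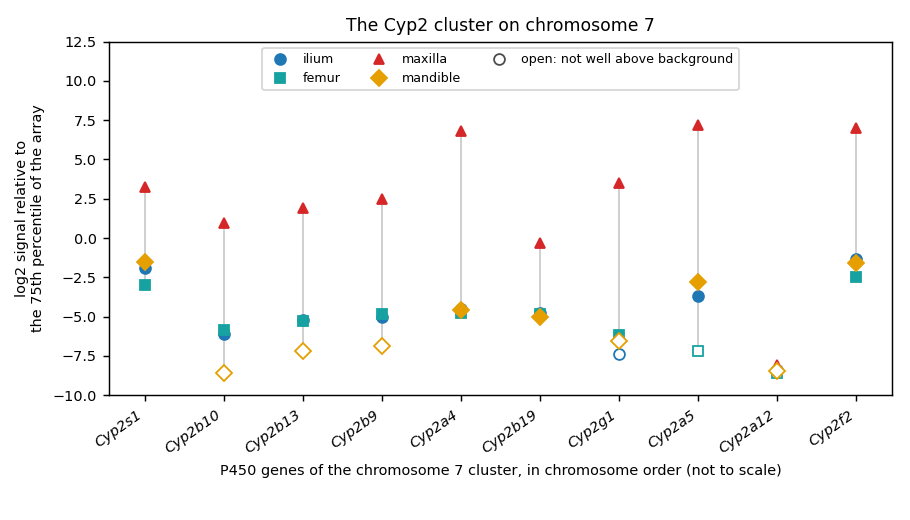
Log2 signal minus the array's own 75th percentile (y axis) of the 10 P450 genes of the chromosome 7 cluster in chromosome order (x axis, not to scale), 1 symbol a bone, filled where well above background. The maxilla is far above the other bones for every gene except Cyp2a12, where all 4 symbols are open and between -8.57 and -8.05.

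Of the 11 Cyp2c genes, known for drug and fatty acid oxidation in the liver, 6 were detected. Cyp2c65 read -6.76 (ilium, not well above background), -5.41 (femur), -2.96 (maxilla) and -5.20 (mandible), a gap of 4.72-fold to the next bone. Cyp2c66 was also brightest in the maxilla, which was 5.81-fold above the mandible and 3.79-fold above the femur, just short of the 4-fold rule. Cyp2c40 was well above background in the femur only. The other 3 detected genes differed between maxilla and mandible by -0.48 to 0.06 on the log2 scale. Cyp2c29, Cyp2c38, Cyp2c39, Cyp2c44 (current symbol Cyp2c23) and Cyp2c54 were not well above background in any bone.

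Of the 5 Cyp2d genes, 4 were detected. Cyp2d10 read -4.99 (ilium), -4.79 (femur), -0.03 (maxilla) and -5.07 (mandible), a gap of 27.1-fold. Its other probe read -4.73, -4.13, -3.62 and -4.24 and did not mark the maxilla, so the result holds for 1 of 2 probes. Cyp2d22 differed the other way between the jaw bones, with -2.96, -3.25, -2.76 and -0.95, the mandible being 3.51-fold above the maxilla. All 3 of its probes had the mandible highest. Cyp2d9 and Cyp2d26 had small ranges, with maxilla minus mandible at -0.17 and 0.36. Cyp2d13 was not detected. Cyp2e1, the ethanol-inducible enzyme, read -2.55, -5.25, -1.85 and -4.07. It was 6.48-fold brighter in the ilium than in the femur and 4.66-fold brighter in the maxilla than in the mandible. Cyp2a5 was the other member above 4-fold in the ilium against the femur (11.3-fold as measured, with the femur not well above background). With another background correction (normexp) 0 members reached 4-fold there.

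The Cyp2j genes, known as arachidonic acid epoxygenases, were detected for 3 members, and limma called 1 higher (background 4.52%). Both jaw values were above both others in all 3, as for 31.9% of all tested gene names. Cyp2j9 read -2.64 (ilium), -2.88 (femur), -0.07 (maxilla) and -0.90 (mandible). The difference was 2.27 ± 0.37 (SE), or 4.83-fold (limma adjusted p = 0.0446). The call was lost under quantile normalization (adjusted p = 0.0532) and with no filter on dim genes (adjusted p = 0.0623). Cyp2j6 read -2.55, -3.36, 0.94 and -1.32, with a difference of 2.77 ± 0.90 (adjusted p = 0.127). Cyp2j13 read -5.01, -5.69, -1.46 and -3.93, with a difference of 2.65 ± 0.95 (adjusted p = 0.151). In Cyp2j6 and Cyp2j13 the classes did not overlap, but the maxilla was 4.82-fold and 5.56-fold above the mandible, which widened the error. Both other Cyp2j13 probes were not well above background in any bone. Cyp2j5 and Cyp2j11 were not detected.

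Of the 6 Cyp3a genes, the main drug oxidising subfamily of liver and gut, 3 were detected. Cyp3a13 read -7.07 (ilium), -8.78 (femur), -1.90 (maxilla) and -8.65 (mandible). It was well above background in the maxilla only, at least 22.6-fold above each other bone. Cyp3a11 was 2.38-fold above the next bone in the maxilla, and Cyp3a41 (current symbol Cyp3a41a) had a range of 0.52 over the bones. Cyp3a16, Cyp3a25 and Cyp3a44 were not well above background in any bone. Nr1i2, the gene of the receptor PXR that drives Cyp3a genes, read -7.12, -7.26, -2.54 and -7.17 and was likewise detected in the maxilla only (at least 14.5-fold). It was the 1 of 20 listed receptor genes to mark the maxilla (background 6.68%).

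Family 4 enzymes mainly hydroxylate fatty acids and eicosanoids, and 9 of the 11 members were detected. Of these, 3 marked the maxilla. Cyp4a10 read -3.36 (ilium), -3.25 (femur), -0.93 (maxilla) and -4.00 (mandible), a gap of 5.00-fold. Of its other 2 probes, 1 was detected and fell short of the rule. Cyp4a12 (current symbol Cyp4a12a) read -4.57, -4.77, -0.28 and -4.88, a gap of 19.5-fold. Cyp4a14 was not detected. Cyp4b1, known from the lung, went another way. It read 2.34, 2.69, 2.62 and 0.37, so that the mandible alone was low, 4.74-fold below the maxilla. Cyp4x1 had the same order, with the mandible lowest at -4.87, and Cyp4v3 ranged over 1.0.

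Cyp4f15 and Cyp4f18 showed contrary patterns within 1 subfamily. Cyp4f18, known as the enzyme that inactivates leukotrienes in neutrophils, read 2.48 (ilium), 2.71 (femur), 0.37 (maxilla) and 0.35 (mandible). Both jaw values lay below both others, as for 36.2% of all tested gene names. The jaw bones were lower by 2.24 ± 0.21 on the log2 scale (SE, difference -2.24), a change of 4.72-fold (limma adjusted p = 0.0326). It was the 1 member called lower. Cyp4f15 read -8.34, -8.57, 0.02 and -8.38, and was well above background in the maxilla only, at least 85.5-fold above each other bone. Cyp4f13 and Cyp4f16 were nearly level, with maxilla minus mandible at 0.30 and -0.13, and Cyp4f14 was not detected. Several marrow marker lists had the same direction as Cyp4f18. The 3 B lymphocyte markers summed to 6.19, 8.29, 1.32 and 1.39, and limma called all 3 lower (background 7.22%). The 3 erythroid markers summed to 12.3, 15.7, 0.931 and 1.56, and all 3 were called lower. The 3 macrophage markers summed to 14, 11.9, 6.4 and 7.9, with 0 called by limma and 2 at an unadjusted p under 0.05 (background 34.3%). The 5 neutrophil markers summed to 627, 632, 541 and 369, with a median difference of -1.02 and 1 called lower (Ngp, -2.27 ± 0.39, adjusted p = 0.0475). They were mixed: S100a9 read 7.87, 7.86, 8.15 and 7.75 (0.08 ± 0.24), and Ltf was brightest in the maxilla (7.13, 7.16, 7.30 and 5.26). The part of these marker lists in the Cyp4f18 result was not tested. The promoters of the pair are shown for their contrast, at chr8:72009627-72009876 on the minus strand (Cyp4f18) and chr17:32685409-32685658 on the plus strand (Cyp4f15), GRCm38.p6, from RefSeq. Capitals mark ATTGG, which is CCAAT read on the minus strand of the gene.
Cyp4f18: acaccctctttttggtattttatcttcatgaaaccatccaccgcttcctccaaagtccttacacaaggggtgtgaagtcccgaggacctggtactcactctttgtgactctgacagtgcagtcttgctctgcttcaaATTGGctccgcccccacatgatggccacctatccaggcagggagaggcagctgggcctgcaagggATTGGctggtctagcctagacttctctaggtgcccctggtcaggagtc
Cyp4f15: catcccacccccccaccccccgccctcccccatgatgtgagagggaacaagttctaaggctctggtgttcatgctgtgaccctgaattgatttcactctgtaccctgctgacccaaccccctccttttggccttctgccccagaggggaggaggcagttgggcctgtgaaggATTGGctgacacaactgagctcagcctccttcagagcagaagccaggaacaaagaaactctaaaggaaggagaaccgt
They shared 51.2% of 293 aligned columns. CCAAT, searched on both strands, was in 33.8% of all promoters and in 24 of the 63 of members. The motif GCGTG, the core of the element bound by the Ahr receptor, was in 28.2% of all promoters and in 12 of the 63.

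**Figure D4:**
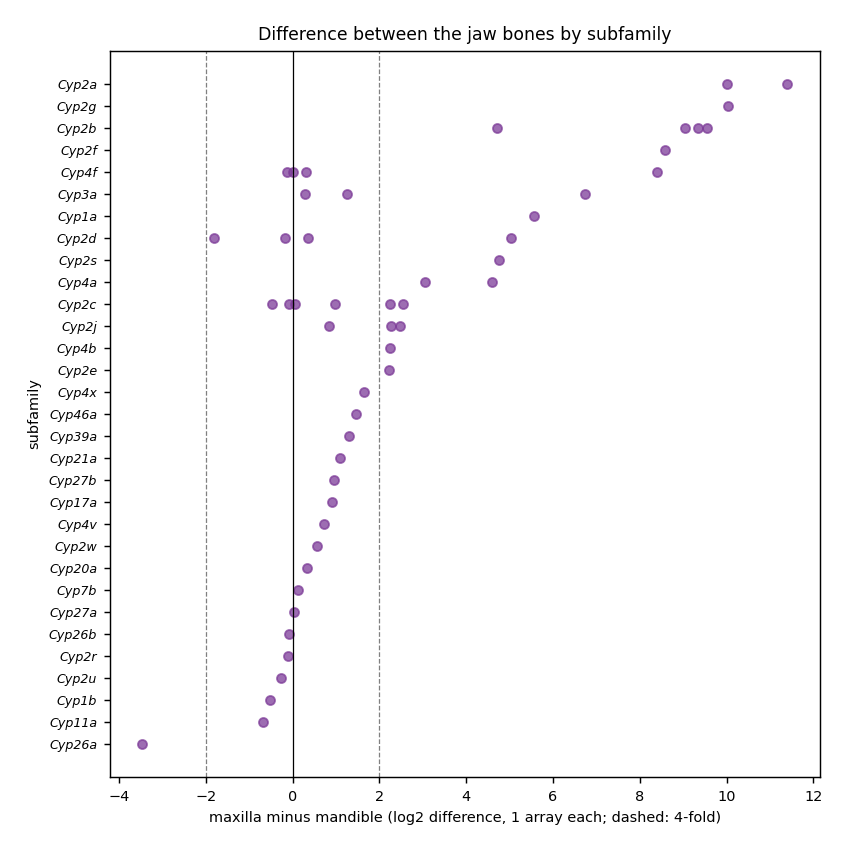
Log2 difference of the maxilla from the mandible (x axis, 1 array each) for the 51 detected P450 genes, 1 point a gene, in rows of subfamilies (y axis); dashed lines mark 4-fold. Cyp2a, Cyp2b, Cyp2f, Cyp2g, Cyp1a, Cyp2s, Cyp4a, Cyp2e and Cyp4b lie wholly to the right of the upper 4-fold line. Cyp4f, Cyp3a and Cyp2d each have 1 gene far to the right of the rest, and Cyp26a lies at -3.47.

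Genes that work with the P450 enzymes were read on the same arrays. Por, the reductase gene, read 2.40 (ilium), 2.36 (femur), 4.53 (maxilla) and 2.35 (mandible), so the maxilla was 4.37-fold above the next bone. It was the 1 of 8 electron donor and partner genes to mark the maxilla. Limma called 0 of the 8 between the classes, with 2 at an unadjusted p under 0.05, a level that 34.3% of all tested gene names reached. Of 31 partner enzymes of xenobiotic metabolism found, 13 marked the maxilla (background 6.68%). Of these enzymes 26 were tested, with 1 called higher (Aox3, 7.01 ± 1.06, adjusted p = 0.0404, background 4.52%) and 0 lower (background 7.22%). Their median difference was 0.96. Ugt2a1, an olfactory glucuronosyltransferase, read -7.03, -6.33, 2.50 and -6.09 and was at least 385-fold brighter in the maxilla. Cbr2, a carbonyl reductase, read 1.75, 0.94, 7.88 and 2.64, a gap of 37.8-fold. Of 20 receptor genes that regulate P450 genes, 19 were tested. Limma called Rarb higher (background 4.52%) and Pparg lower (-1.77 ± 0.25, adjusted p = 0.0368, background 7.22%). Of the P450 enzymes outside the name pattern, 4 were found. The thromboxane synthase gene Tbxas1, known from platelets and macrophages, was called lower (2.17, 2.47, -0.76 and -0.06; -2.74 ± 0.33, adjusted p = 0.0340). Cyp51, of cholesterol synthesis, read -3.01, -2.98, -0.95 and -1.62 and did not pass (1.71 ± 0.31, adjusted p = 0.0507).

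Most listed markers of nasal and glandular tissue moved with the maxilla results. Of 8 olfactory neuron markers, 6 marked the maxilla (background 6.68%), and the summed signal of the 8 was 0.446 (ilium), 0.279 (femur), 17.2 (maxilla) and 0.528 (mandible). All 8 were well above background in the maxilla, against 5 or 6 in the other bones. All 4 olfactory supporting cell markers marked the maxilla, with sums of 3.41, 2.0, 244 and 6.29, and 2 of 4 were well above background in each other bone. Of those 4, Ugt2a1 and Cbr2 are also among the partner enzymes above. Of 6 airway secretory markers, 4 marked the maxilla, with sums of 0.669, 0.45, 321 and 0.564. The largest maxilla values in that sum were those of Bpifa1 (7.33) and Reg3g (7.23). Scgb1a1 read -4.62, -3.06, -4.49 and -4.66 and was brightest in the femur, and Scgb3a2 did not meet the rule. Bpifa1, a secreted protein of the nasal airway, read -1.86, -7.73, 7.33 and -3.86, with the ilium well above the femur as for Cyp2a5. The 4 salivary and nasal gland markers found all marked the maxilla, with sums of 0.284, 0.329, 95.8 and 0.293. Their part in the maxilla signal of the P450 genes was not tested. Of the 7 hepatocyte markers 0 marked the maxilla. Steroidogenic gland markers summed to between 0.223 and 0.524, and 1 of 4 marked the maxilla (background 6.68%).

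**Figure D5:**
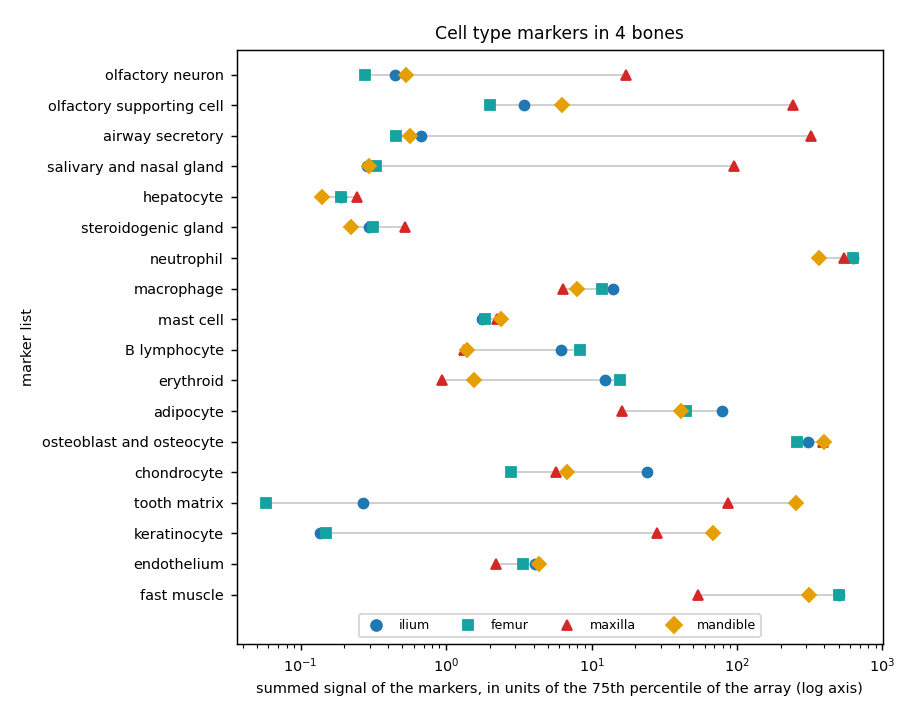
Summed signal of each list of cell type markers (y axis) in the 4 bones, in units of the 75th percentile of each array (x axis, log scale), 1 symbol a bone. The sums of the olfactory, airway secretory and gland markers are high in the maxilla alone. Those of the tooth matrix and keratinocyte markers are high in both jaw bones, and those of the hepatocyte markers stay between 0.141 and 0.243.

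Members with several probes give a partial check within the arrays. Of the 18 members with at least 2 detected probes, the probes gave the same answer to the 4-fold rule for 1 bone in 15 and different answers in 3, which were Cyp2b13, Cyp2d10 and Cyp4a10. The agreements include members where neither probe marked a bone, such as Cyp27b1 and Cyp4f16. The second probes of Cyp1a2, Cyp2b9, Cyp2b19 and Cyp2g1 were detected in the maxilla only, so they could mark no other bone. Probes detected in no bone, such as the second of Cyp2s1, were not compared. Members of 1 subfamily are similar in sequence, so their probes may read each other's RNA, and genes of 1 subfamily are not independent. Taking for each gene the dimmest detected probe, 15 members marked the maxilla in place of 18, and 19 in place of 21 were at least 4-fold above the mandible.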

How the data were processed

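Intensity values per spot were deposited. The submitters' processing notes name Agilent Feature Extraction 9.5.3.1. The processed signal had been background-subtracted and spatially detrended by the authors' scanner software, per the file headers. The deposited series table holds log2 values: each column was the log2 ratio to the ilium, scaled as below, minus a constant (0.0157 femur, 0.4012 maxilla, 0.1222 mandible; 99.8% of probes within 0.001). Column medians were 0, 0.023, -0.217 and -0.133 (ilium, femur, maxilla, mandible). The origin of the constants is not given in the labels or headers.

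Here the log2 of the 75th percentile of the array was subtracted from log2 processed signal. Outlier spots were dropped (0 on probes of members), spots of a probe averaged, and the probe with the highest mean stood for a gene name. Current symbols came from RefSeq (GRCm38.p6), by accession for 65 of 71 members. Gene names well above background on at least 2 of 4 arrays entered limma 3.58.1 (R 4.3.3; lmFit, eBayes, Benjamini-Hochberg at 0.05). The code was tested on simulated data. All arrays were on 1 slide, so position on it and bone cannot be told apart.

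Named by rule were members called by limma or separated by the size or 4-fold rules, members of steroid hormone, sterol, vitamin D and retinoic acid metabolism, and up to 4 genes a list that limma called or that were 4-fold apart between the jaw bones. Ahr, Vdr, Nr1i3, Cyp51, S100a9, Scgb1a1, Scgb3a2, V1re12, EG243881 and the other members with values were named after their values were seen. Members and lists were chosen with earlier results of these data known.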

Additional observations from a re-analysis of the deposited data

How the results depend on the processing

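The number of arrays limits the precision: 1 a bone. Alternatives were quantile normalization, median centring, normexp correction, other filters, other probe rules and the deposited series table. The counts of members called by limma were 4 higher and 1 lower. With no filter there was 1 higher. Leaving out an array gave 0 to 23 higher and 0 to 7 lower. For the size rule, with 7 higher and 1 lower, leaving out an array gave 8 to 23 higher and 1 to 6 lower. Under this rule the counts cannot fall when an array is dropped, because fewer values then have to be apart. With detection on all 4 arrays required, the counts at 4-fold were 12 for maxilla over mandible (main 21), 9 for the maxilla over every bone (main 18) and 1 for ilium over femur (main 2); fewer genes could then count. Normexp gave 0 for ilium over femur. Mandible over maxilla was 2 in place of 1 under quantile normalization, under median centring and in the series table; the cause was not tested. Setting undetected bones to their bound and taking the dimmest probe were chosen after seeing the data. The remaining counts stayed within 1.5 times the main one. No sign of the 8 members called or separated by size reversed in the 12 alternative fits run for each. The median difference over all genes was -0.03, and -0.28 with median centring or in the series table. Of all calls, 38.5% were higher in jaw, 26.9% with median centring and 27.3% in the series table. Leaving out an array was not run for the 4-fold rules, which compare single arrays. No paired analysis was possible because each bone has 1 array.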
